A study of Rattus norvegicus with 23 samples.

Results

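Smooth muscle contractile genes were followed in lung RNA of elderly rats that had inhaled a titanium dioxide (TiO2) nano-aerosol. The set held 10 genes: Acta2, Actg2, Myh11, Mylk, Smtn, Tagln, Cnn1, Lmod1, Synpo2 and Des. They were listed by symbol, as textbook markers of smooth muscle. No threshold on a measured value entered that list, but it was drawn up with earlier results of these data known, so the counts below are descriptions of a set that was not chosen blind. On the array these genes were read by 12 probes in 14 spots, out of 45598 probes, and all 10 were among the 23059 genes that passed the filter on dim probes.

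The rats were male F344 Fisher rats, 19 months old when the inhalation began. Exposed rats breathed TiO2 at 10 mg/m3, nose only, over 4 weeks (6 h on each of 5 days a week), and controls breathed filtered air. Total RNA of the accessory lobe was hybridized with 1 rat per single-colour array, from 6 control and 5 exposed rats at the end of exposure (D0) and from 6 control and 6 exposed rats 28 days later (D28). All groups were of 1 sex, 1 strain and 1 age at the start of inhalation, so no other age group, dose or lobe was measured here. Rats of D28 were 28 days older when sampled than those of D0, so ageing and time after exposure cannot be told apart. The exposed arrays of D28 were placed by their titles and descriptions, since their source label reads day 0. The lobe was taken whole, so the smooth muscle of airways and of vessels is mixed in every value, and fewer muscle cells cannot be told apart from less RNA per cell.

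Smooth muscle contracts when calcium, bound to calmodulin, activates myosin light chain kinase, which phosphorylates the light chains of smooth muscle myosin and lets it pull on actin filaments. In the lung this muscle rings the bronchi and bronchioles, where it sets airway calibre, and lies in the walls of the pulmonary arteries and veins. Many of its genes are switched on by serum response factor (SRF) with its partner myocardin, through a DNA motif called the CArG box, and their transcripts fall when the cells leave the contractile state.

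The 4 groups were compared in one limma model on log2 normalized signals, with Benjamini-Hochberg adjustment over all 23059 genes. A gene was past both thresholds with an adjusted p below 0.05 and a fold change (FC) of at least 1.5 in either direction. Signals of an array probe have no common scale, so values are compared between rats for the same gene and never between genes. The 23 arrays lay on 5 slides, each scanned on a single day. The share of spots well above background was 69.5 to 77.9% per array. The mean of the 11 alveolar epithelium markers lay between 13.61 and 13.95 on the log2 scale on every array. Every member was well above background on all 23 arrays, except Synpo2, which was so on 20 of 23, and the second of the Lmod1 probes, which was so on 0 of 23.

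The probes that the results below turn on are shown 5′ to 3′ as they stand on the array, since they are what was measured. The probes of Tagln and Cnn1 are shown because they differed most between slide 1 and slides 2 to 4, as given below. They lie at chr8:48902736-48903116 on the minus strand and at chr8:21219991-21220050 on the plus strand of rn4, per the array files, and the 60 bases for Tagln are spread over a span of 381 bases there. The annotation of that build was not used here.
Tagln probe: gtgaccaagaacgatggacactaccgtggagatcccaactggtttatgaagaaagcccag
Cnn1 probe: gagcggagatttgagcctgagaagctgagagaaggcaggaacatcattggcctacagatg
The probes of Mylk and Acta2 were the 2 of 12 that held AATAAA, the signal for the addition of the poly(A) tail, which is in capitals in the 30 bases shown, on the strand of the probe. AATAAA was in 9.04% of all 45598 probes. The Mylk probe lies at chr11:67602541-67602600 on the minus strand of rn4, and the array files give no position for that of Acta2.
Mylk probe, bases 31 to 60: ctcacaatttttaAATAAAggataccacag
Acta2 probe, bases 1 to 30: ttttttAATAAAtcagacatgtgctaccct

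No contractile gene was past both thresholds on D0 or on D28. On D0 this was 0 of 10 members against 1.81% of all genes (418 of 23059). On D28 it was 0 of 10 against 0.755% (174 genes). By the adjusted p alone, 2 members were lower in exposed rats on D0, Mylk and Smtn, where 1.38% of all genes were so. At an unadjusted p below 0.05, 5 of 10 were lower on D0 (6.34% of all genes) and 2 of 10 on D28 (6.18%), and none was higher. Signs leaned one way on D0: 9 of 10 members had a lower mean in exposed rats, against 50.1% of all genes, with a median log2 FC of -0.27 over the members and 0.00 over all genes. These are counts of genes that vary together, as described below, and not of independent findings. On D28, 6 of 10 were lower, against 51.1% of all genes, with a median of -0.10 against -0.01.

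**Figure D1:**
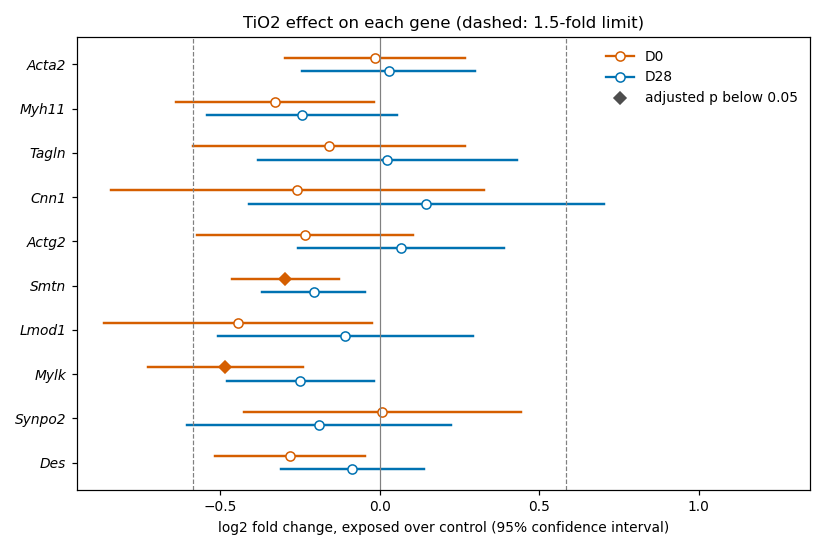
Log2 fold change of each contractile gene, exposed over control rats, on D0 (orange) and on D28 (blue), with 95% confidence intervals from limma. Filled diamonds mark an adjusted p below 0.05, which only Mylk and Smtn on D0 reached, and no point lies past the dashed lines of the 1.5-fold limit.

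Mylk encodes myosin light chain kinase, the enzyme that starts contraction. From the same gene come a long kinase of endothelium and other cells and the small protein telokin, which this probe was not tested to separate. On D0, the lowest, median and highest control rats had Mylk signals of 12.37, 12.44 and 12.69 on the log2 scale. The 5 exposed rats had 11.999, 12.11, 12.20, 11.93 and 11.77. All exposed rats were thus below all controls. Groups that did not overlap in this direction were found for 2.36% of all genes. Mylk was 1.40-fold lower (log2 FC of -0.48, SE 0.12, limma adjusted p = 0.0240). The difference was of the same sign on each of the 4 slides that held both groups, from -0.60 to -0.24. With the slide as a block it was -0.50 (limma adjusted p = 0.0113). On D28, Mylk was at 12.15, 12.64 and 12.88 in the lowest, median and highest control and at 12.16, 12.26 and 12.52 in exposed rats. There the groups overlapped, and the difference did not pass (log2 FC of -0.25, SE 0.11, limma adjusted p = 0.391). On slide 1 it was of the opposite sign, at 0.11, while slides 2 and 4 gave -0.43 and -0.50.

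Smtn encodes smoothelin, which binds the actin filaments of fully differentiated smooth muscle. On D0, control rats had 9.77, 9.86 and 10.01 as the lowest, median and highest value. Exposed rats had 9.55, 9.68, 9.71, 9.55 and 9.44. Again all exposed rats were below all controls, by a smaller step (FC of 1.23, log2 FC of -0.30, SE 0.08, limma adjusted p = 0.0499). The sign was the same on all 4 slides, from -0.36 to -0.06. This call stood at the threshold: it was kept in 3 of the 23 fits that left out 1 array, with an adjusted p between 0.0321 and 0.147, and lost without the 7 arrays of slide 1 (0.334). That of Mylk was kept in 18 of 23 and lost without control replicate 2 or 4 or exposed replicate 1, 4 or 5. On D28 Smtn was lower on all 3 slides that held both groups, with a log2 FC of -0.21 over all arrays (SE 0.08, limma adjusted p = 0.249), and the groups overlapped.

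**Figure D2:**
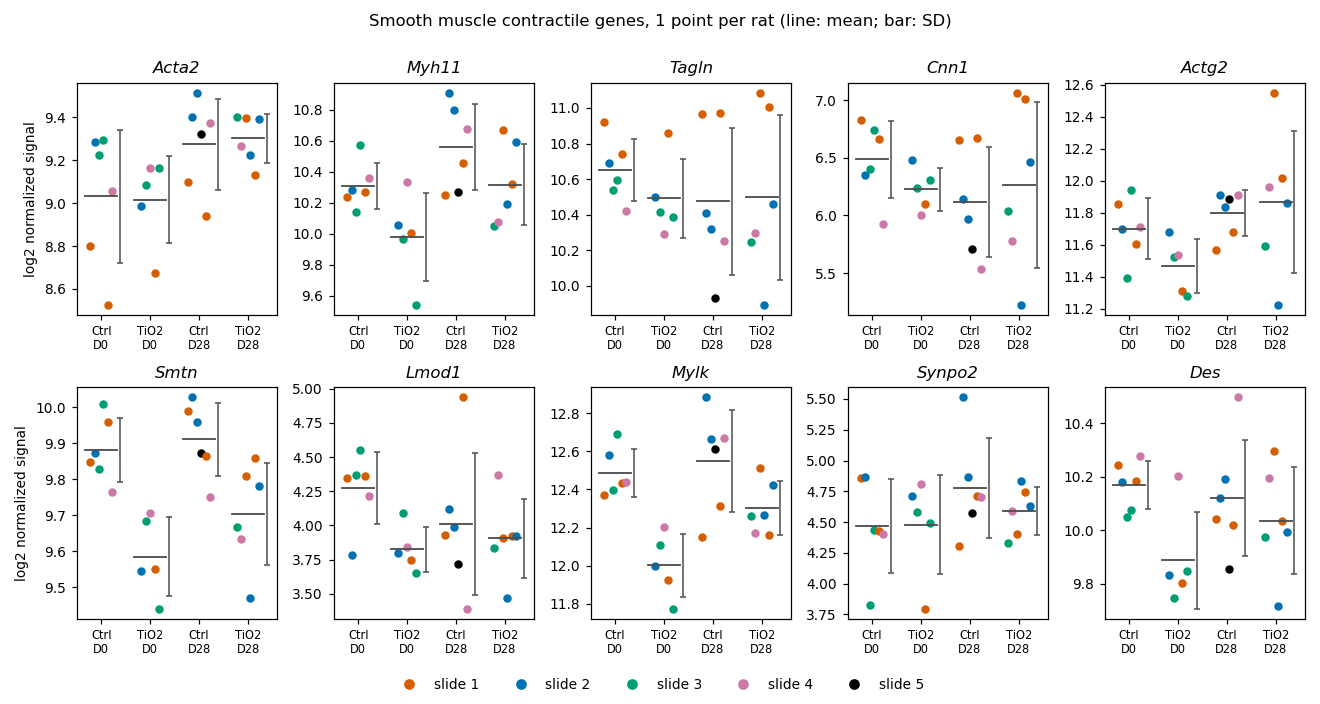
Log2 normalized signals of the 10 contractile genes, 1 point per rat, in the 6 control and 5 exposed rats of D0 and the 6 control and 6 exposed rats of D28. Lines are means, bars are SD and colours are slides. Mylk and Smtn of exposed rats lie below all controls on D0, and the orange points of slide 1 lie highest for Tagln in every group.

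Among the filament proteins, Myh11, the heavy chain of smooth muscle myosin and its most specific marker, had 10.14, 10.27 and 10.57 as the lowest, median and highest control signal on D0. Exposed rats had 10.06, 9.97, 10.33, 10.01 and 9.54. The groups overlapped, and the log2 FC of -0.33 (SE 0.15) was not past the threshold (limma adjusted p = 0.370). Des encodes desmin, the intermediate filament of muscle. Its control signals on D0 ran from 10.05 to 10.28, and 4 of the 5 exposed rats lay at or below 9.85 with replicate 3 at 10.20, which gave a log2 FC of -0.28 (SE 0.11, limma adjusted p = 0.265).

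Both actins of smooth muscle were read. Acta2, the vascular form and the usual marker of myofibroblasts as well, was at 9.03 ± 0.31 (SD, n = 6) in controls and 9.02 ± 0.20 (n = 5) in exposed rats on D0, and at 9.27 ± 0.21 and 9.30 ± 0.11 (n = 6 each) on D28. The log2 FC were -0.02 (95% confidence interval from -0.30 to 0.27) and 0.03 (-0.24 to 0.30), so a change of 1.5-fold lay outside both intervals. Actg2, the actin of gut and other visceral muscle, was at 11.70 ± 0.19 and 11.47 ± 0.17 on D0 and at 11.80 ± 0.14 and 11.87 ± 0.44 on D28. Its log2 FC of -0.23 and 0.07 were not past the threshold (limma adjusted p = 0.706 and 0.945). The pair of Actg2 probes share 56 of their bases, so they are not separate evidence. Over all members, the interval lay inside the 1.5-fold limits for 5 of 10 on D0 and for 8 of 10 on D28.

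Tagln encodes transgelin (SM22), an actin-binding protein, and Cnn1 encodes calponin, which holds back the myosin ATPase. Rats of the same group differed widely in both. On D28, Tagln ran from 9.93 to 10.97 in controls and from 9.89 to 11.08 in exposed rats, and Cnn1 from 5.54 to 6.68 and from 5.23 to 7.06. Neither passed on either day: the log2 FC was -0.16 and 0.02 for Tagln and -0.26 and 0.15 for Cnn1. With a SE of 0.28 on D0, the interval for Cnn1 ran from -0.84 to 0.33, a range that holds a 1.5-fold lower signal as well as no difference.

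Lmod1 and Synpo2 had the probes that were not well above background on every array. Lmod1 encodes leiomodin, which starts new actin filaments, and its log2 FC of -0.45 on D0 (SE 0.20, limma adjusted p = 0.363) averaged a probe that was well above background on every array with one that never was. The brighter probe alone gave -0.23 (SE 0.21), and the groups of rats overlapped: 5.71 to 6.22 in controls and 5.48 to 6.07 in exposed rats. Synpo2 encodes myopodin, an actin-bundling protein, and was the 1 member of 10 with a higher mean in exposed rats on D0, at 0.01 (SE 0.21).

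Time after exposure, which goes with 28 days of age, was compared in the same model. In control rats no member differed between D28 and D0 (0 of 10 past both thresholds against 0.616% of all genes, and 0 of 10 at an unadjusted p below 0.05 against 13.3%), with log2 differences from -0.37 for Cnn1 to 0.31 for Synpo2. In exposed rats, all 10 members had a higher mean on D28 than on D0, against 47.3% of all genes, with a median of 0.13, and 0 of 10 were past both thresholds against 0.356% of all genes. Actg2 was 0.40 higher (SE 0.16), Myh11 0.33 (SE 0.15), Mylk 0.30 (SE 0.12) and Acta2 0.29 (SE 0.14), the 4 of 10 at an unadjusted p below 0.05 (7.71% of all genes), with limma adjusted p between 0.503 and 0.645, and all 10 pairs of groups overlapped. These comparisons use the same exposed rats of D0 as the comparison with controls. The test of the difference between the effects of TiO2 on the 2 days called 0 of 10 members (0.0304% of all genes, 7 in number), with an adjusted p of 1.00 for each and 0 of 10 at an unadjusted p below 0.05 (3.45% of all genes). For Mylk, the effect was 0.23 less negative on D28 (95% confidence interval from -0.10 to 0.57). A loss on D0 with recovery by D28 was therefore not shown for any of the 10 genes.

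Some contractile genes differed more between slides than between exposed and control rats. Slide 1 held 7 arrays from all 4 groups, and its 7 Tagln values, from 10.74 to 11.08, lay above all 16 others, from 9.89 to 10.69. After the mean of its group was taken from each value, slide 1 exceeded slides 2 to 4 by 0.55 in Tagln and by 0.61 in Cnn1, but lay below them in Acta2, at -0.34. An F test for slide in a limma model with group and slide called 4 of 10 members: Tagln (adjusted p = 0.000620), Acta2 (0.0124), Cnn1 (0.0253) and Des (0.0288). The same test called 33.6% of all genes, so the share of members is near that of the array as a whole. Mylk and Smtn did not pass it (adjusted p = 0.416 and 0.836).

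**Figure D3:**
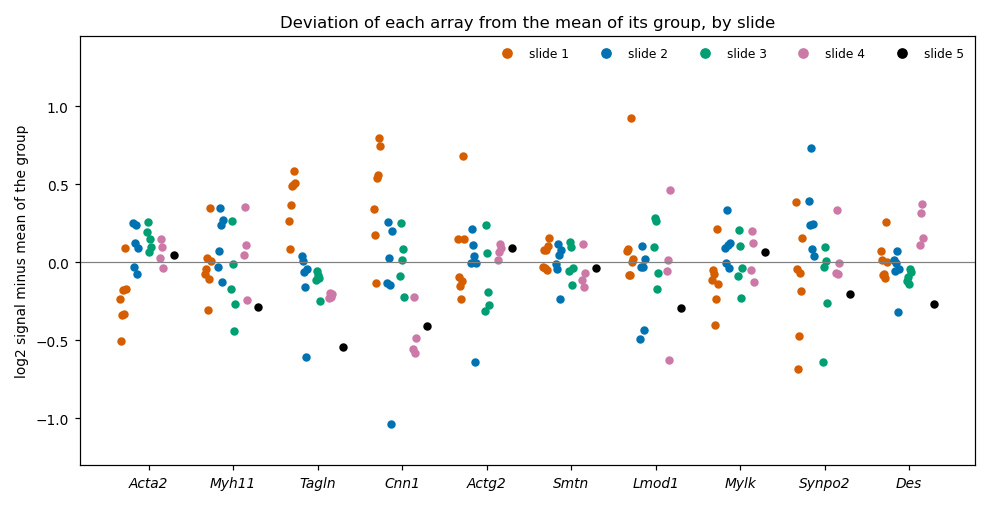
Deviation of each array from the mean of its group on the log2 scale, for each contractile gene, with the 5 slides in separate columns and colours. The 7 arrays of slide 1 lie above 0 for Tagln and mostly below 0 for Acta2, while slide 4 lies above 0 for Des and below 0 for Cnn1.

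The shift of slide 1 followed the base composition of the probes over the whole array. Its median was -0.28 over 681 probes with 20 or fewer G and C bases out of 60, -0.11 with 21 to 24, 0.01 with 25 to 28, 0.11 with 29 to 32, and 0.12 over 3920 probes with 33 or more. The probes of Tagln and Cnn1 printed above hold 30 and 31 such bases and those of Acta2 and Mylk 24 and 21. Their own shifts, 0.55, 0.61, -0.34 and -0.16, had the sign of their class and were larger than its median for all 4. Not every member did so: Des, with 32, was at 0.00, and Synpo2, with 27, at -0.20. Probes with AATAAA moved by -0.10 and the others by -0.02. Whether the slides differed in the RNA of their rats or in the hybridization was not tested.

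Deviations of rats from the mean of their group were compared between contractile genes. The 45 pairs of members had a median Pearson r of 0.201 over the 23 arrays after the mean of the group was subtracted, with 35 pairs above 0. Over all pairs of 23011 genes that median was 0.005, with 50.6% above 0. After both group and slide were subtracted, over the 22 arrays of slides 1 to 4, the median was 0.431 and 43 of 45 were above 0, against 0.008 and 51.0% over all pairs of genes. By permutation of arrays within groups, or within slides (100000 draws, two-sided), 6 and 16 pairs had an adjusted p below 0.05 over the 45 by r, all of them positive, and 2 and 9 of these by rho as well. The closest genes outside the set had a higher mean r with the members than most members had with each other, as given at the end. Those genes were picked for that r out of all genes, so this does not measure how closely the members vary together. All pairs share the same rats, arrays and slides, and these values describe differences between rats and not an effect of TiO2.

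With slides subtracted, the closest pair was Myh11 and Mylk, the motor and the kinase that activates it. Their r was 0.789 (rho 0.778, permutation adjusted p = 0.00157) with groups alone and 0.915 (rho 0.888, permutation adjusted p = 0.000450, resting on the smallest p that the draws can give) with slides subtracted too. Without the 2 arrays farthest from the median of Myh11, the latter was 0.879. With groups alone, the closest pair was Tagln and Cnn1, both of which set slide 1 apart (r of 0.867, rho 0.892, permutation adjusted p = 0.000450). Their r was 0.826 with slides subtracted (rho 0.831, permutation adjusted p = 0.0112), 0.680 over the 7 arrays of slide 1 and 0.931 over the 6 arrays of slide 2.

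Acta2 and Tagln turned sign. Over all arrays they ran against each other (r of -0.457, rho of -0.359, permutation adjusted p = 0.0606). Within slide 1 their r was 0.778 (7 arrays) and within slide 2 it was 0.554 (6 arrays), and with slides subtracted it was 0.658 (rho 0.433, permutation adjusted p = 0.0171 for r and 0.164 for rho). The pooled value thus rested on the difference between slides. Lmod1 was the member least like the others, with a mean r of 0.105 after slides were subtracted, where Actg2 was most like them, at 0.583. The Lmod1 value averages in its probe that was never well above background. The part of that probe in the low r was not tested.

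**Figure D4:**
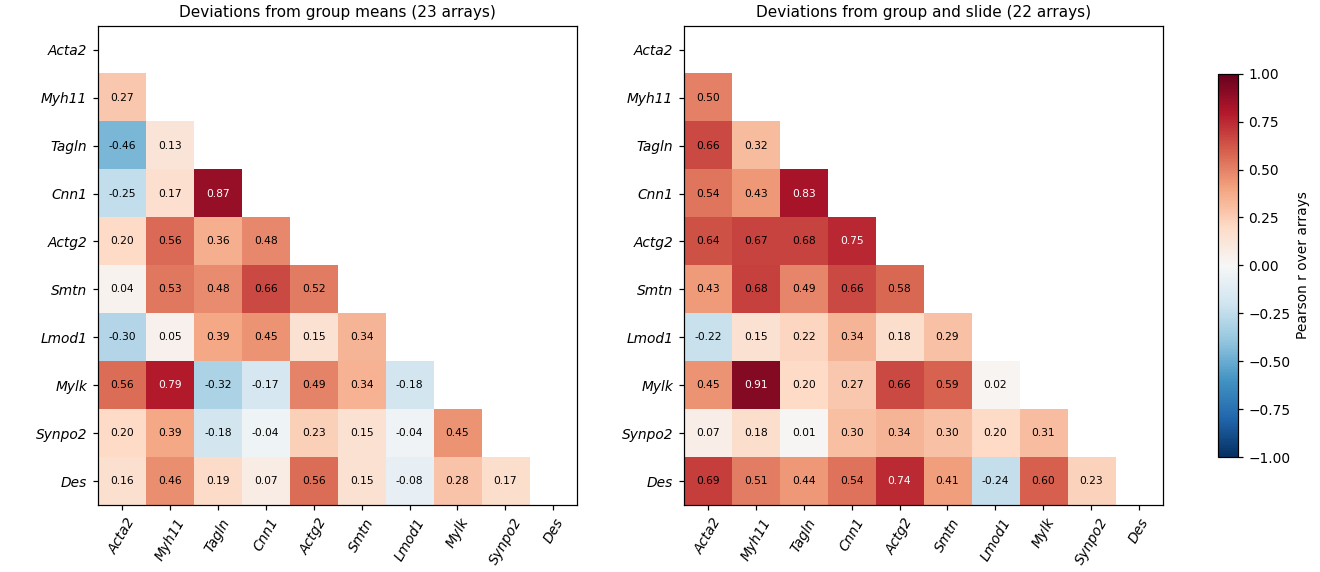
Pearson r between each pair of contractile genes over arrays, with the mean of the group subtracted (left, 23 arrays) and with group and slide subtracted (right, 22 arrays). Tagln with Acta2 goes from -0.46 to 0.66, and Myh11 with Mylk from 0.79 to 0.91.

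One exposed rat of D28, replicate 4, had the lowest value of its group in 6 of 10 members and was below the group mean in 9, by up to -1.04 in Cnn1. On the same day replicate 3 had the highest value in 6 of 10. Both rats widened the spread of the exposed group, in which the SD of Actg2 was 0.44 against 0.14 in controls.

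Other genes of the contractile apparatus came from lists drawn up from general knowledge. Of 17 measured genes for other filament and adhesion proteins, 0 were past both thresholds in any comparison, with a median log2 FC of -0.07 on D0. The largest were Myl9, the regulatory light chain that Mylk phosphorylates, at -0.35 (SE 0.21, limma adjusted p = 0.602) and Fbln5, fibulin 5 of elastic fibres, also at -0.35. Of 18 genes that carry the calcium, kinase and phosphatase signal, 0 were past both. Ppp1r14a, the CPI-17 inhibitor of myosin phosphatase, was lower on D0, at -0.57 (SE 0.13, limma adjusted p = 0.0164), just under the fold limit. All exposed rats lay below all controls for it, as for 2.36% of all genes. Gucy1a1, a subunit of the guanylate cyclase that senses nitric oxide, was at -0.44 (limma adjusted p = 0.0634).

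Receptors for signals to smooth muscle held genes past both thresholds. Of 18 measured, 1 fell on D0, where 0.711% of all genes fell past both, and 1 on D28, where 0.269% did. Avpr1a, the vasopressin receptor that contracts vessels, fell 2.10-fold on D0 (log2 FC of -1.07, SE 0.21, limma adjusted p = 0.00462), with no overlap (2.36% of all genes in this direction). Npr3, the clearance receptor for natriuretic peptides, fell 2.31-fold on D28 (-1.21, SE 0.19, limma adjusted p = 0.00268). Its groups did not overlap, as was so for 0.542% of all genes in this direction on D28. Ednrb, an endothelin receptor found on endothelium as well as on muscle, was at -0.52 on D0 (limma adjusted p = 0.00183).

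Of 16 transcription factors and cofactors, among them Srf, Myocd and the myocardin-related factors, 0 were past both thresholds in any comparison. On D0, Foxf1, a factor of lung mesenchyme and endothelium, was at -0.58 (SE 0.13, limma adjusted p = 0.0127), and Klf4, which represses contractile genes, was at -0.58 as well (SE 0.12, limma adjusted p = 0.00897). In both, all exposed rats lay below all controls, as was so for 2.36% of all genes on D0. The median of the list was -0.20.

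**Figure D5:**
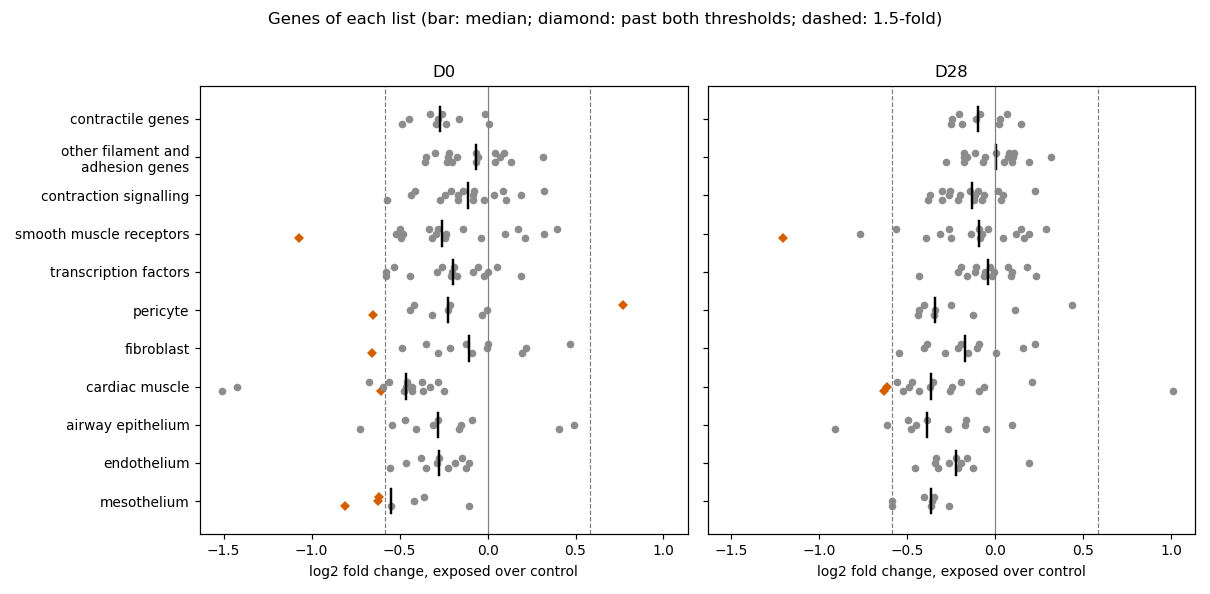
Log2 fold change of each gene, exposed over control, on D0 (left) and D28 (right) for the contractile genes, 4 lists of related genes and markers of 6 neighbouring cell types. Bars are medians, and diamonds are genes past both thresholds, of which the contractile genes have none.

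The promoters of the contractile genes are of interest for the CArG box, which is CC, then 6 bases that are A or T, then GG. RefSeq promoters of GRCr8, from 250 bases before to 50 after the start, were in the table used for 7 of 10 members (not for Myh11, Tagln or Lmod1). On either strand, 0 of 7 held a CArG box, against 1.64% of 33469 promoters. With 1 of the inner bases free to be G or C, 1 of 7 held it, against 9.42%, and TATAAA was in 0 of 7 against 14.2%. The 1 was Acta2, with CCCTATATGG from base -134 and CCTTGTTTGG from base -84 before the start. They are in capitals in its 250 bases, shown 5′ to 3′ in the direction of the gene (chr1:241172504-241172753, minus strand). A match of letters is no evidence of binding in these lungs, and a window without one says nothing of the factor.
Acta2 promoter: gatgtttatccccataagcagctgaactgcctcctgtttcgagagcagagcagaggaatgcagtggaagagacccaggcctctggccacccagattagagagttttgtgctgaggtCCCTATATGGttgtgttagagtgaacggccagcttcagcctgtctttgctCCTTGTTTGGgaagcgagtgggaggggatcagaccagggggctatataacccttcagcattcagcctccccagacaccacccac

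Markers of mesothelium, endothelium and heart muscle were lower in exposed rats on D0, as most contractile genes were, so their levels are given beside them. Of 7 mesothelium markers, all had a lower mean (50.1% of all genes) and 3 fell past both thresholds (0.711% of all genes): Cpe (-0.81), Lrrn4 (-0.62) and Wt1 (-0.62). The mean of the list ran from 8.95 to 9.14 in controls and from 8.43 to 8.63 in exposed rats, without overlap. All 11 endothelium markers were lower, led by Cldn5 (-0.55) and Ramp2 (-0.46), 0 of them past both thresholds. Their list means were 12.32 to 12.53 in controls and 11.96 to 12.29 in exposed rats, again without overlap. The contractile list did not overlap on D0 either (8.82 to 9.09 and 8.58 to 8.81), nor did the receptor list (6.91 to 6.97 and 6.65 to 6.85). No share over all genes was computed for list means. Of 16 heart muscle markers, 16 were lower and 1 fell past both, Myl7 (-0.60, limma adjusted p = 0.00985). Many of these markers are expressed by the muscle sleeves of pulmonary veins. The largest differences of the list, Myl3 (-1.51, SE 1.06) and Myl2 (-1.43, SE 0.58), did not pass (limma adjusted p = 0.714 and 0.268). Signals of Myl3 were dim, with means of 1.75 in exposed rats and 3.26 in controls. The means of the heart list overlapped on D0, with 8.15 to 9.14 in controls and 7.62 to 8.20 in exposed rats. Control replicate 5 had the highest mean of the heart list on D0 (9.14), and the other controls lay at or below 8.45. Without it, 16 were again lower and Myl7 was at -0.57 (limma adjusted p = 0.0267), under the fold limit, while Wt1 of the mesothelium lost its call (limma adjusted p = 0.0880). On D28, 2 of the 16 fell past both (0.269% of all genes), Myl7 (-0.63) and Csrp3 (-0.62), of which Csrp3 had not passed on D0 (-0.37).

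Of 9 pericyte markers, Rgs5 (-0.65) fell past both thresholds on D0, as 0.711% of all genes did. Notch3, which vascular smooth muscle also expresses, rose past both (0.77, SE 0.12, limma adjusted p = 0.000983), as 1.1% did. Each of the other pericyte markers had a lower mean in exposed rats too, as had most airway markers, against 50.1% of all genes. The pericyte list means overlapped. The call of Rgs5 was lost without control replicate 5 (limma adjusted p = 0.0943). Of 12 fibroblast markers, Tcf21 fell past both on D0 (-0.66), against 0.711% of all genes. Signs in this list were mixed: Col1a1, Fn1, Npnt and Pi16 had a higher mean in exposed rats on D0 and the rest a lower one. Neither the 11 airway nor the 11 alveolar, 11 macrophage and neutrophil, 12 skeletal muscle or 10 cartilage markers held a gene past both thresholds between exposed and control rats of a day. The largest log2 FC among them on D0 were those of Bpifa1 (-0.72) and Cyp2f4 (-0.54) for airways, Aqp5 (-0.47) and Sftpa1 (0.40) for alveoli, Marco (1.04) of macrophages and S100a9 (0.63) of neutrophils, Myh1 (-2.10) and Mylpf (-1.45) for skeletal muscle, and Hapln1 (-0.48) and Chad (-0.37) for cartilage. The mean of the alveolar list was 13.74 in controls and 13.76 in exposed rats, and that of the macrophage and neutrophil list was 8.46 and 8.73. Signs in the latter list were mixed on D0: Adgre1, Csf3r and Fcgr3a had a lower mean in exposed rats and its other markers a higher one. Over time, Col1a1 of the fibroblast list rose from D0 to D28, 3.04-fold in controls and 2.29-fold in exposed rats. Col3a1 also rose, by 1.29 and 1.00 on the log2 scale. Pdgfrb of the pericyte list rose in controls (0.80), and Muc5b of airways fell in exposed rats (-1.48). The changes of Muc5b, Marco and Hapln1 rest on dim signals. Muc5b of exposed rats had a mean of 4.08 on D0 and 2.60 on D28. On D0, exposed and control means were 3.56 and 2.51 for Marco and 2.06 and 2.54 for Hapln1. The Lmod1 probe that was never well above background had group means from 1.89 to 2.55. Whether Muc5b, Marco and Hapln1 were well above background was not tested. Skeletal muscle markers were uneven. On D0 the mean of that list was 8.93 in control replicate 5 and from 5.81 to 7.01 in the other controls. Without that rat, the difference of the list fell from -0.77 to -0.30, with Myh1 at -1.26 and Mylpf at -0.64 and 7 in place of 11 of the 12 markers lower. On D28 the list mean was up to 9.01 in 1 exposed rat against a lowest of 5.16 in the same group.

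Over the 23 arrays, with the mean of the group subtracted, 2 of 140 relations between a member and one of 14 lists passed. With slides subtracted too, 11 of 140 passed by r, all of them positive, and 5 of these by rho as well. Myh11 and Mylk varied with the mean of the fibroblast markers (r of 0.864, rho 0.850 and permutation adjusted p = 0.00420 for Myh11, and r of 0.691, rho 0.704 and permutation adjusted p = 0.0245 for Mylk), and with slides subtracted r was 0.843 and 0.752. Without the 2 farthest arrays the first values were 0.820 and 0.708. The others that passed by both measures with slides subtracted were Cnn1 with endothelium (r of 0.738, permutation adjusted p = 0.0135), Lmod1 with the transcription factors (0.681, permutation adjusted p = 0.0136) and Cnn1 with the same list (0.551, permutation adjusted p = 0.0294). The relation of Lmod1 rests in part on its probe that was never well above background. Of the 6 that passed by r alone, 4 were with the receptor list, for Acta2, Myh11, Actg2 and Des. Mylk had r of -0.435 with the mesothelium markers (permutation adjusted p = 0.318) and 0.126 with those of endothelium (permutation adjusted p = 0.795). For Smtn, r was 0.250 and 0.382 (permutation adjusted p = 0.685 and 0.391). The part of these cells in the lower Mylk and Smtn of exposed rats on D0 was not tested.

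Among the 10 genes outside the set that followed the members most closely, by mean Pearson r over the 23 arrays with the group subtracted, were Klhl12 (0.447), Plekha2 (0.445), Pxdn (0.442), Gab1 (0.442), Tnxa-ps1 (0.439), Zhx3 (0.438), Wdr13 (0.438), Zeb1 (0.438) and Chn1 (0.434). With slides subtracted too, over 22 arrays, the first were Pik3ip1 (0.610) and Tepsin (0.609), and only Pxdn and Zhx3 of the earlier 10 were again among the first 10. These 10 ran from 0.579 to 0.610, where the mean r of a member with the other members ran from 0.105 to 0.583. The former were the highest of all genes by this r and the members were not chosen by it, so the ranges are not alike.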

How the data were processed

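The authors deposited 23 scanner output files and 1 table of all arrays. Per the file headers, these hold intensity values from Agilent Feature Extraction (version 11.0.1.1 on 22 arrays, 12.0.1.1 on 1): the processed signal is corrected for background within an array and not normalized between arrays. The deposited table, quantile normalized and on the linear scale, was an alternative. Control spots were dropped, outlier spots were treated as missing, and a probe was kept (40418 of 45598) when it exceeded the 95th percentile of the 308 negative controls on 5 or more arrays. Log2 processed signals were quantile normalized, and spots of a probe, then probes of a gene, were averaged. Gene names were those of the 1 file of the later software version. One model with 4 group means (limma 3.58.1, R 4.3.3, 19 residual degrees of freedom) had no batch term, since the study's methods correct for batches that they do not name. P-values were adjusted by Benjamini-Hochberg over all genes. Slides were read from file headers. The fit was tested on simulated data, and the number of arrays limits its precision. The members and lists were chosen with earlier results of these data known. The genes named were all members, of each list those past both thresholds or else the 2 with the largest change on D0, and the 10 genes most like the members, of which 1 is not reported here. Myl6 and Matn3 of the lists were not among the genes tested.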

Additional observations from a re-analysis of the deposited data

Results flagged for a closer look

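Of 40 sets of values, the 10 contractile genes in each of 4 groups, 1 held a rat far from the others by Dixon's criterion, where chance gives about 1 in 20. Des of exposed replicate 3 on D0, on slide 4, was at 10.20 on the log2 scale, while the other 4 exposed rats lay between 9.75 and 9.85. Its gap to the next rat was 0.784 of the range of the group. The same rat had the highest value of its group in 6 of 10 members.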

How the results depend on the processing

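Alternatives were normexp background correction, 75th percentile scaling, cyclic loess, the deposited table, no filter or a filter by spots well above background, the brightest probe, fits of only the groups compared, an intensity trend, array quality weights, the slide and the replicate number as blocks, no fold limit, 1 array left out, and, chosen after seeing the data, the arrays of slide 1 left out and, for the marker lists, control replicate 5 of D0 left out. Under all of these but the fit with no fold limit, 0 of 10 members were past both thresholds in each comparison. With no fold limit there were 2 on D0, Mylk and Smtn. Replicate numbers were not taken to pair rats: correlations of same-numbered rats ran from -0.23 to -0.12 between the groups of D0 (own number best in 0 of 5), from -0.17 to 0.46 between those of D28 (2 of 6), from -0.19 to 0.39 between controls of both days (3 of 6) and from -0.30 to 0.15 between exposed rats (0 of 5). With the replicate block the count stayed 0 and Mylk was at -0.47 (limma adjusted p = 0.0264). Mylk on D0 kept an adjusted p below 0.05 in 13 of 13 other settings (0.00625 to 0.0441) and lost it without control replicate 2 or 4 or exposed replicate 1, 4 or 5, with up to 0.0789. Smtn kept it in 10 of 13 and lost it with the replicate block (0.0838), with only the groups compared (0.0719) and without slide 1 (0.334), and in 20 of 23 fits without 1 array. Des passed with array quality weights alone (-0.30, limma adjusted p = 0.0457). The median pairwise r of 0.201 was 0.431 with the slide as a block and 0.351 without slide 1, and ran from 0.189 to 0.270 without 1 array. Of 640 gene values under other settings and 1150 without 1 array, 23 and 38 turned sign, none of them past a threshold either way, and the cause was not tested. Scaling to the 75th percentile moved the median log2 FC of all genes by less than 0.1 in each comparison. The other scalings were not compared in this way. With 5 or 6 rats a group, the widest 95% interval of a TiO2 effect on D0, that of Cnn1, ran from -0.84 to 0.33.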
